A study of Mus musculus with 6 samples.

Results

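Mature miRNAs of the inflammation and immediate-early response were examined in C2C12 cells, a mouse myoblast line. The 7 names were mmu-miR-155-5p, mmu-miR-155-3p, mmu-miR-146a-5p, mmu-miR-146b-5p, mmu-miR-147-3p, mmu-miR-132-3p and mmu-miR-212-3p (written below without the species prefix). They were chosen by name from a deposited table of 1065 names, with earlier results of these data known, and all 7 were found. Small RNA libraries came from 3 samples of cells treated with TGF-beta and 3 samples of control cells, all of the same line. The labels give neither the dose, the duration nor the isoform of TGF-beta, and they do not say whether the samples came from separate cultures, so p-values refer to differences among these 6 libraries, and some of that spread may be technical. The extraction text of the labels speaks of retinas, which contradicts the cell line. In the libraries, 5 miRNAs of skeletal muscle together held 101338 to 102533 RPM with TGF-beta and 134804 to 154422 RPM in control. Markers of retina were not compared, and the source of the cells was not tested. RPM, the unit of all levels here, counts the reads of a name in every 1000000 miRNA reads.

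The members are known from innate immunity. miR-155 is processed from the noncoding RNA Mir155hg, which is induced in activated immune cells, and in mouse mammary epithelial cells it has been described as a gene induced by TGF-beta through Smad4. In muscle, miR-155 is known to repress the myogenic factor Mef2a. miR-146a and miR-146b repress Irak1 and Traf6, adaptors of Toll-like receptor signalling, and act as a brake on NF-kappaB. miR-147 is induced by Toll-like receptors in mouse macrophages, and miR-132 and miR-212 are a CREB-driven immediate-early pair best known from neurons.

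The mature sequences are shown because a miRNA recognizes its targets mainly through the seed, bases 2 to 8, written in capitals. They are from RefSeq on GRCm38.p6 and run 5′ to 3′.
miR-155-5p: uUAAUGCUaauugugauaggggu
miR-155-3p: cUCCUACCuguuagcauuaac
miR-146a-5p: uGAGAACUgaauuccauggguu
miR-146b-5p: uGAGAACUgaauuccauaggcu
miR-132-3p: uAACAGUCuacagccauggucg
miR-212-3p: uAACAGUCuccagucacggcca
miR-147-5p: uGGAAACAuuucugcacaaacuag
Of the 12 arms of the 6 hairpins, 11 had a mature sequence there, of 21 to 24 bases, and miR-147-3p is named only. miR-146a-5p and miR-146b-5p share a seed and 20 of 22 bases, with the substitutions G18A and U21C from miR-146a-5p to miR-146b-5p, counted from the 5′ end. miR-132-3p and miR-212-3p also share a seed and 17 of 22 bases, differing by A10C, C14U, U17C, U20C and G22A. Among the 865 names of the table with a sequence there, no further name had the seed of any of these arms.

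The hairpins lie in 5 places. Mir155 is on chromosome 16 (84714140 to 84714204, plus strand of GRCm38) in an exon of the lincRNA Mir155hg. Mir146, the hairpin of miR-146a, is on chromosome 11 (43374397 to 43374461, minus strand) outside any other gene of GENCODE M21, 11021 bases from the lincRNA Gm12148. Mir146b is on chromosome 19 (46342762 to 46342870, plus strand) in an intron of the protein-coding gene Mfsd13a. Mir147 is on chromosome 2 (122640803 to 122640881, plus strand) in exonic sequence of AA467197, annotated as untranslated region in 2 of the 3 transcripts that span it. Mir212 and Mir132 are on chromosome 11 (75173388 to 75173478 and 75173682 to 75173747, plus strand), 203 bases apart in an intron of the noncoding transcript 1700016P03Rik. Every host is on the strand of its hairpin.

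The libraries held 9015669 to 9450936 miRNA reads with TGF-beta and 9273231 to 9813063 in control, so that 1 read was worth 0.102 to 0.111 RPM. Replicates of a group correlated at 0.993 to 0.997 in log2 level across miRNAs, and TGF-beta replicate 3 had the lower values, 0.993 and 0.995, with the other treated libraries. Together the 7 members took 0.298% ± 0.017 of the miRNA reads with TGF-beta and 0.271% ± 0.0097 in control (SD, n = 3 each). miR-146b-5p made up 82.1% to 85.7% of the member reads with TGF-beta and 87.7% to 88.6% in control. miR-155-5p made up 11.2% to 14.1% with TGF-beta and 7.70% to 8.11% in control. By mean level over the 6 libraries, miR-146b-5p was in place 42 and miR-155-5p in place 97 of the 1065 names.

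The order of the levels in RPM was similar in both groups at the top. In each group it ran from miR-146b-5p through miR-155-5p, miR-132-3p, miR-212-5p, miR-132-5p, miR-147-3p and miR-147-5p, and the ranges of neighbours in this stretch did not overlap. Below it the order was miR-146a-5p, miR-155-3p, miR-212-3p and miR-146b-3p with TGF-beta, where only miR-147-5p and miR-146a-5p overlapped, and miR-146a-5p cleared miR-155-3p by less than the worth of a single read. In control the order below it was miR-212-3p, miR-146a-5p, miR-155-3p and miR-146b-3p, and each of these overlapped its neighbour, as did miR-147-5p and miR-212-3p. RPM is not corrected for length, and the arms with a sequence are of nearly equal length.

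**Figure D1:**
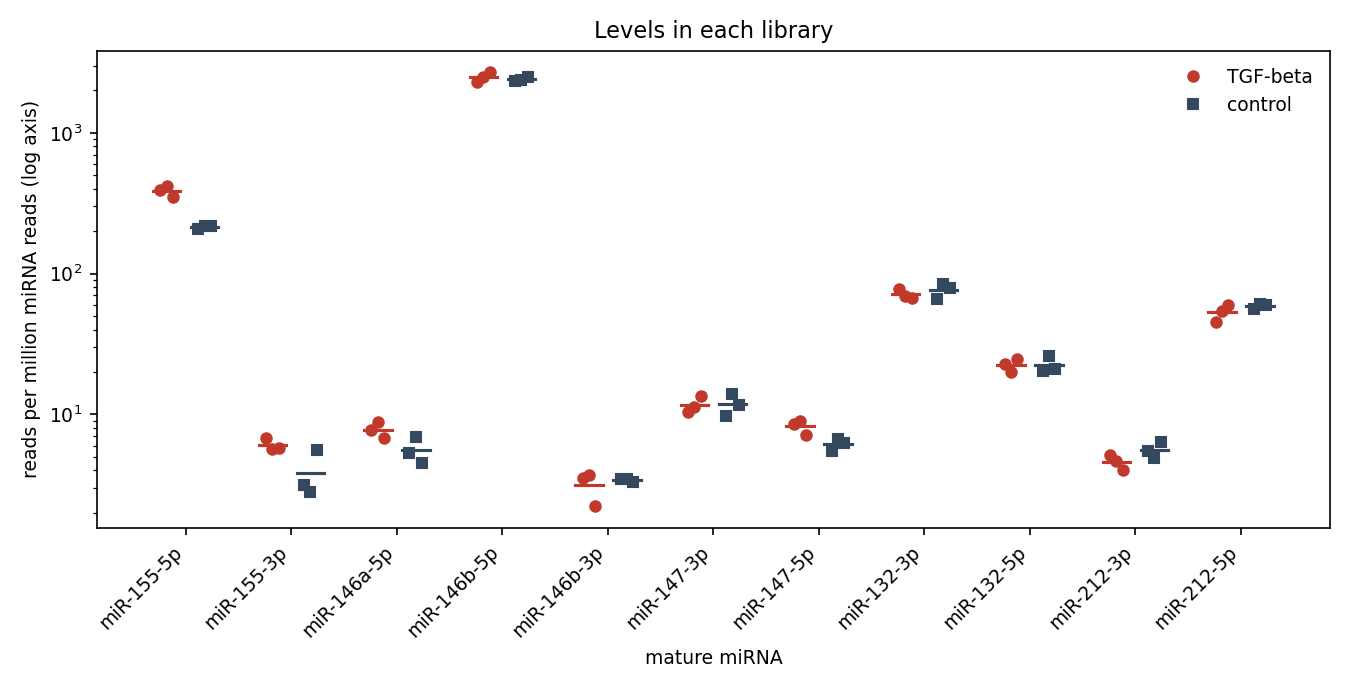
Level of each arm in RPM (vertical log axis) in the 3 TGF-beta libraries (circles) and the 3 control libraries (squares), with a line at each mean. miR-155-5p stands at 349.5 to 418 RPM with TGF-beta and at 208 to 219 RPM in control, while the miR-146b-5p groups, at means of 2495 RPM with TGF-beta and 2393 RPM in control, overlap.

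Treated libraries were compared with control libraries by limma on log2(RPM + 1), over the 418 names that reached 1 RPM in 3 or more libraries. All 7 members and 4 of their other arms were among these. The threshold, an adjusted p under 0.05 by Benjamini-Hochberg, was passed by 1 of the 7 members, miR-155-5p, and by none of the other 4 arms, against 7.89% of all tested names. Of the tested names 17 were called higher and 16 lower with TGF-beta, a split of 20 and 10 with median scaling, 18 and 10 with TMM scaling and 22 and 6 with miR-21a-5p left out. Higher calls alone were 4.07% of the tested names and lower calls 3.83%. Some names had nearly identical values under separate entries, such as those of miR-486, and each entry counted separately in these shares. The median log2 fold change was 0.058 over the 7 members and -0.049 over all tested names. Groups did not overlap for 2 of the 7 members, miR-155-5p and miR-155-3p, both higher with TGF-beta, and for 21.3% of all tested names (9.09% higher and 12.2% lower).

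miR-155-5p, the guide arm of its hairpin, was higher with TGF-beta in every library. It stood at 393, 418 and 349.5 RPM in TGF-beta replicates 1 to 3, against 208, 219 and 217 RPM in control replicates 1 to 3. The treated values were separated from the control values by more than the range within either group. The means were 387 ± 34.6 RPM with TGF-beta and 214 ± 5.59 RPM in control (SD, n = 3 each), a ratio of 1.80. The log2 fold change was 0.84 (SE 0.13, limma with Benjamini-Hochberg, adjusted p = 0.000479), with a 95% confidence interval of 0.57 to 1.12, the 5th highest of the 418 fold changes. The control libraries held 2027 to 2042 reads of it, with a coefficient of variation of 2.60%, close to the 2.22% that counting error alone gives. The treated libraries held 3151 to 3949 reads, with a coefficient of variation of 8.95% against 1.67% from counting error. TGF-beta replicate 3, the library that stood somewhat apart, was the lowest of the treated values, and without it the log2 fold change was 0.92 (limma adjusted p = 0.000575). The authors' deposited table gives an unadjusted p of 0.00104 for this miRNA.

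miR-155-3p, the passenger arm, was scarce. It stood at 6.76, 5.71 and 5.77 RPM with TGF-beta and at 3.16, 2.80 and 5.55 RPM in control, which is 52 to 63 reads with TGF-beta and 26 to 52 in control. The groups did not overlap, though control replicate 3 came close to the treated values. The log2 fold change was 0.59 (SE 0.22) and did not pass (limma adjusted p = 0.135, interval 0.13 to 1.05). Without control replicate 3 it was 0.83 and passed (limma adjusted p = 0.0344). The coefficient of variation in control was 38.9%, against 16.6% from counting error.

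Both arms of the miR-155 hairpin summed to 400.2, 424 and 355 RPM with TGF-beta and to 211, 221 and 222 RPM in control. A two-sided exact permutation test of the locus sums gave p = 0.1, the smallest that 3 against 3 libraries allow, and 0.5 after Benjamini-Hochberg adjustment over 5 loci. The 5p arm is shown in capitals in the RefSeq hairpin, because it carried nearly all reads of the locus.
miR-155 hairpin: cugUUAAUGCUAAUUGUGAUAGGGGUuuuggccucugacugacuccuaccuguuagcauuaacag
Of the reads of both arms the 5p arm took 98.4% ± 0.18 with TGF-beta and 98.2% ± 0.65 in control (SD, n = 3 each). The log2 ratio of 5p to 3p was 5.77 ± 0.16 with TGF-beta and 5.52 ± 0.41 in control, a difference of 0.26 (SE 0.24) that did not pass in a limma fit over 108 hairpins (adjusted p = 0.736). Without control replicate 3 it was 0.023, without TGF-beta replicate 2 it was 0.16, without control replicate 2 it was 0.42, and with a pseudocount of 5 it was 0.49, and none of these passed. In that fit 0 of 108 hairpins passed, and 9 (8.33%) had an unadjusted p under 0.05.

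**Figure D2:**
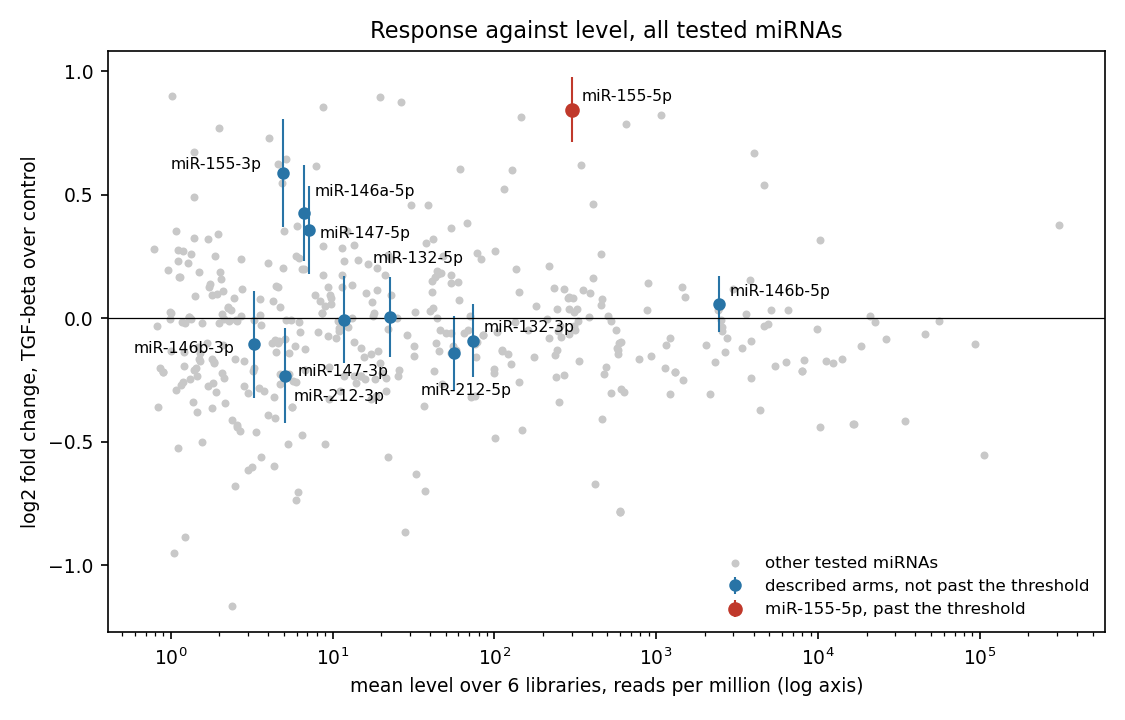
Log2 fold change of TGF-beta over control (vertical axis) against the mean level over the 6 libraries in RPM (horizontal log axis) for the 418 tested names. miR-155-5p at 0.84 lies above the other described arms, whose bars, like its own, are standard errors.

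The miR-146 pair was unequal in level and did not pass. miR-146b-5p, the abundant form in these cells, stood at 2297, 2503 and 2684 RPM with TGF-beta and at 2324, 2363 and 2492 RPM in control. The groups overlapped, with the lowest of the 6 values in TGF-beta replicate 1 and the highest in TGF-beta replicate 3. The log2 fold change was 0.058 (SE 0.11), which did not pass (limma adjusted p = 0.862). Its interval of -0.18 to 0.29 leaves out a response as large as the 0.84 of miR-155-5p. The fold change depended on the scaling. It was 0.12 with median scaling, 0.14 with quantile normalization and 0.23 with miR-21a-5p left out, and none of these passed. At 21393 to 24199 reads per library with TGF-beta and 21917 to 23363 in control, counting error was under 1% of the level, so depth did not limit this comparison. Its passenger arm miR-146b-3p held 20 to 35 reads with TGF-beta and 31 to 34 in control, and its log2 fold change was -0.11 (SE 0.22, adjusted p = 0.869 by limma).

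miR-146a-5p, which has the same seed but another locus, was rare. It stood at 7.73, 8.78 and 6.77 RPM with TGF-beta and at 5.30, 6.90 and 4.48 RPM in control. TGF-beta replicate 3 lay below the highest control value, so the groups overlapped. The log2 fold change was 0.43 (SE 0.19, adjusted p = 0.268 by limma, interval 0.022 to 0.83). Its reads came to 0.313% ± 0.053 of those of miR-146b-5p with TGF-beta and 0.233% ± 0.056 in control (SD, n = 3 each). The log2 ratio of the pair differed by 0.37, with an exact permutation p of 0.2 and 0.4 after adjustment over 3 pairs. This difference was 0.22 without control replicate 3 or with a pseudocount of 5, and over single left-out libraries it reached 0.52. The first 17 bases of both miRNAs are identical and how reads that match several names were assigned is not given in the sources used here, so the part of miR-146b-5p reads in the values of miR-146a-5p was not tested. By seed, miR-146b-5p gave 99.7% of the 2503 ± 193 RPM of the pair with TGF-beta and 99.8% of the 2399 ± 87.1 RPM in control.

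miR-147, the Toll-like receptor responsive miRNA encoded in AA467197, was low in both arms. miR-147-3p stood at 10.3, 11.3 and 13.5 RPM with TGF-beta and at 9.78, 14.0 and 11.6 RPM in control. Its treated values all lay within the control range, with a log2 fold change of -0.0047 (SE 0.18, adjusted p = 0.999 by limma, interval -0.38 to 0.37). miR-147-5p stood at 8.48, 8.99 and 7.10 RPM with TGF-beta and at 5.50, 6.69 and 6.29 RPM in control. Here every treated value exceeded every control value, but the log2 fold change of 0.36 (SE 0.18) did not pass (limma adjusted p = 0.347), and its reads numbered 64 to 85 with TGF-beta and 54 to 62 in control. The authors' deposited table gives an unadjusted p of 0.0378 for miR-147-5p and 0.957 for miR-147-3p. The 5p arm took 41.3% ± 5.96 of the reads of the hairpin with TGF-beta and 34.5% ± 1.94 in control, and the arm ratio did not pass (0.36, SE 0.22, limma adjusted p = 0.612). Without TGF-beta replicate 3, whose share of 34.4% lay within the control range, the difference of the arm ratio was 0.55 (limma adjusted p = 0.192), and with each of the other libraries left out in turn it was 0.26 to 0.41 and did not pass either.

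The CREB-responsive pair miR-132 and miR-212 did not pass in any arm. miR-132-3p stood at 77.9, 69.4 and 67.0 RPM with TGF-beta and at 66.3, 84.1 and 78.4 RPM in control. Its treated values lay within the control range, with a log2 fold change of -0.090 (SE 0.15, adjusted p = 0.823 by limma, interval -0.40 to 0.22). miR-212-3p, with the same seed, stood at 5.15, 4.66 and 3.99 RPM with TGF-beta and at 5.50, 4.85 and 6.40 RPM in control. Its groups overlapped as well, with a log2 fold change of -0.23 (SE 0.19, adjusted p = 0.640 by limma). The log2 ratio of miR-132-3p to miR-212-3p was 3.69 ± 0.066 with TGF-beta and 3.55 ± 0.27 in control, with an exact permutation p of 0.4.

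These neighbouring hairpins gave most of their reads from opposite arms. The arm with more reads is in capitals in the RefSeq hairpins below, the 5p arm of miR-212 and the 3p arm of miR-132.
miR-212 hairpin: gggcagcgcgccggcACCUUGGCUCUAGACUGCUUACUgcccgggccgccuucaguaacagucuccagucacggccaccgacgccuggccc
miR-132 hairpin: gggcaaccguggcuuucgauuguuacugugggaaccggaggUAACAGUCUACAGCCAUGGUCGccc
The 5p arm took 91.9% ± 1.98 of the miR-212 reads with TGF-beta and 91.3% ± 1.16 in control, but 24.0% ± 2.55 of the miR-132 reads with TGF-beta and 22.8% ± 1.35 in control (SD, n = 3 each). Neither arm ratio passed between the groups (limma adjusted p = 0.906 for miR-212 and 0.863 for miR-132). miR-212-5p stood at 45.5, 54.3 and 60.2 RPM with TGF-beta and at 55.5, 60.5 and 59.7 RPM in control. Its log2 fold change was -0.14 (SE 0.15, adjusted p = 0.714 by limma), and the treated values spread more widely, with a coefficient of variation of 13.9% with TGF-beta and 4.56% in control. miR-132-5p had a log2 fold change of 0.0057 (SE 0.16, adjusted p = 0.999 by limma). All 4 arms of the locus summed to 152 ± 3.79 RPM with TGF-beta and 163 ± 14.1 RPM in control, with an exact permutation p of 0.4. Of this sum miR-132-3p made up 47.1% ± 4.26 and miR-212-5p 35.1% ± 4.45 with TGF-beta, against 46.7% ± 1.58 and 36.0% ± 1.58 in control.

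**Figure D3:**
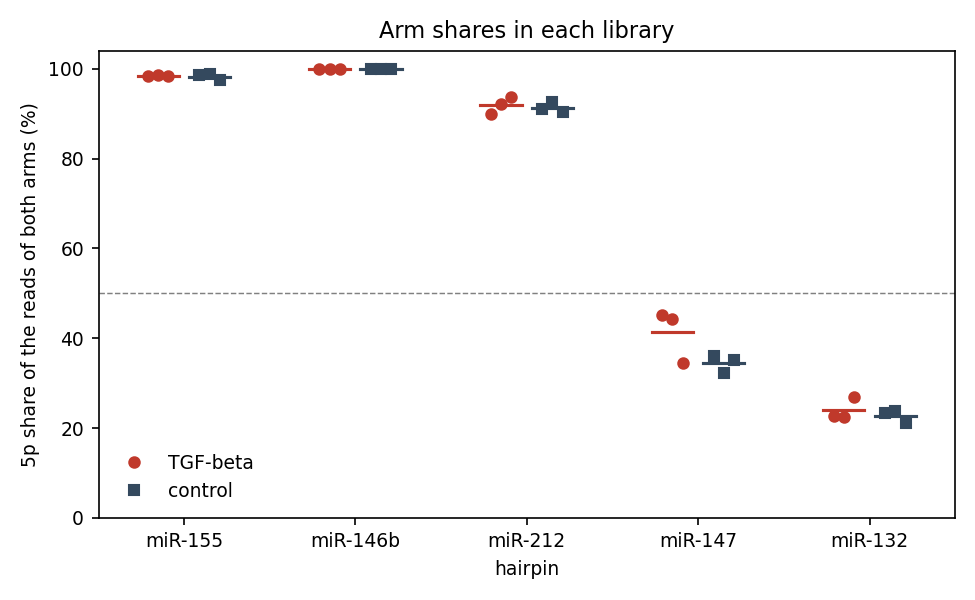
Share of the 5p arm in the reads of both arms (vertical axis, percent) for 5 hairpins in the 3 TGF-beta libraries (circles) and 3 control libraries (squares), with a line at each mean and a dashed line at equal shares. miR-212 lies near 92% and miR-132 near 23% in both groups.

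Whether the other members responded differently from miR-155-5p was tested on the log2 ratio of each name to miR-155-5p within a library, with 1 RPM added to both, so that the ratios of scarce arms move with this pseudocount. In this limma fit 378 of 417 names passed, 90.6%, all with a lower ratio with TGF-beta. Of the 10 other arms 8 did so as well, a share near that of all names. miR-155-5p itself rose by 0.84 on the log2 scale, so names well above 1 RPM with little change have ratios lower by about that much. For such names the ratio mainly restates the rise of miR-155-5p. The log2 ratio of miR-146b-5p to miR-155-5p was 2.69 with TGF-beta and 3.47 in control, a difference of -0.79 (SE 0.13, limma adjusted p = 7.39e-05). The difference was -0.93 (SE 0.15) for miR-132-3p and -0.85 (SE 0.19) for miR-147-3p. The 2 arms that did not pass were miR-155-3p at -0.26 (SE 0.23, limma adjusted p = 0.289) and miR-146a-5p at -0.42 (SE 0.19, limma adjusted p = 0.0509). With a pseudocount of 5 both passed, at -0.49 (limma adjusted p = 0.00446) for miR-155-3p and -0.56 (0.000901) for miR-146a-5p, and without control replicate 3 miR-146a-5p passed (0.0339). miR-147-5p, at -0.49 (SE 0.18, limma adjusted p = 0.0164), did not pass without control replicate 2 (0.0662) or control replicate 3 (0.0562).

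**Figure D4:**
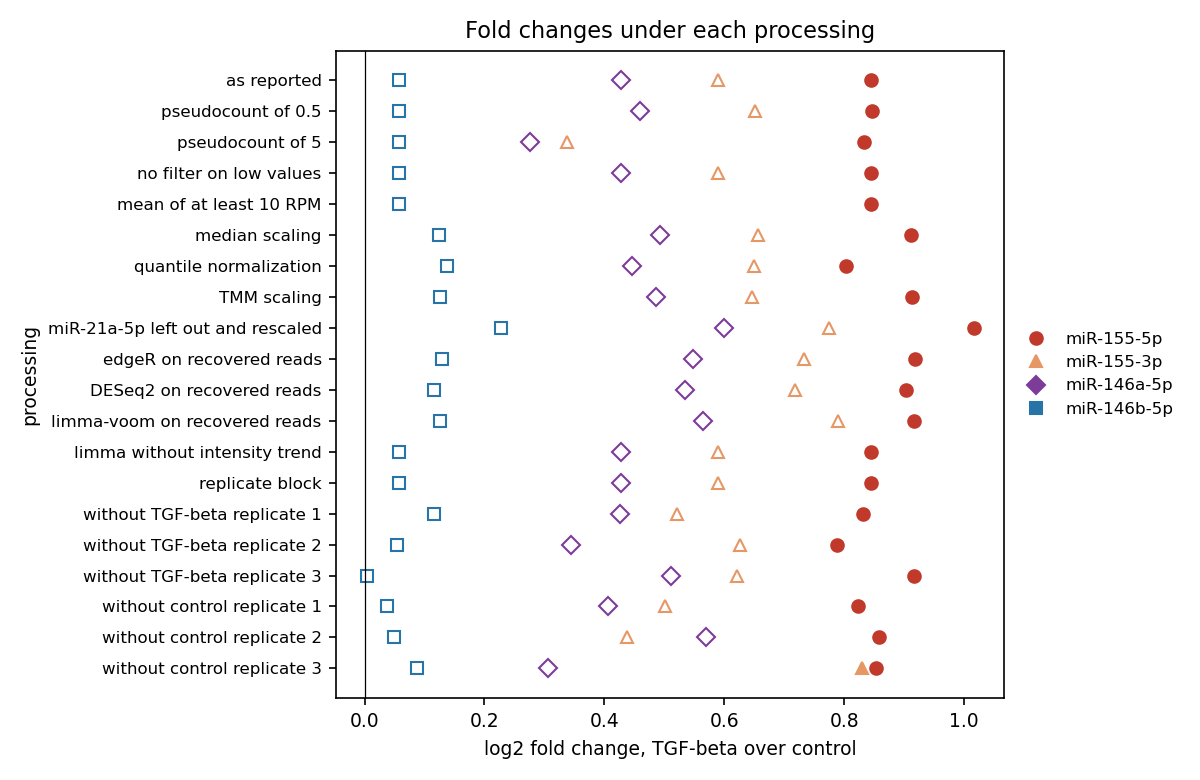
Log2 fold change of TGF-beta over control (horizontal axis) for 4 members under each processing (rows), with filled symbols where the adjusted p was under 0.05. miR-155-5p is filled in every row, from 0.79 to 1.02, and miR-146b-5p in none, while miR-155-3p is filled without control replicate 3 only. miR-155-3p and miR-146a-5p have no symbol where a mean of at least 10 RPM was required.

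Other miRNAs linked to inflammation or NF-kappaB were described from a list of 17 names, of which 15 were listed and 13 tested. Of the 13, 1 was higher with TGF-beta, miR-21a-5p, and none was lower. Their median log2 fold change was -0.029, against -0.049 for all tested names. miR-21a-5p, which is known to increase in many fibrotic organs, is the most abundant name of the table and stood at 340041, 347443 and 367253 RPM with TGF-beta and at 273777, 279354 and 257754 RPM in control. It rose by 0.38 on the log2 scale (SE 0.071, adjusted p = 0.00146 by limma). This call was lost without the filter on low values (limma adjusted p = 0.110), without the intensity trend (0.158) and with quantile normalization, which sets the most abundant name equal in all libraries. The next most abundant, miR-125b-5p and miR-221-3p, were at -0.029 (SE 0.11) and -0.24 (SE 0.13), and neither passed.

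Markers of blood cells were low in every library, the highest single value being 2.11 RPM for miR-451a in TGF-beta replicate 3. All 5 listed names (miR-223-3p, miR-142a-3p, miR-142a-5p, miR-150-5p and miR-451a) summed to 2.01 to 4.99 RPM with TGF-beta and 2.24 to 2.55 RPM in control, and their part in the values of miR-155-5p was not tested. miR-150-5p was at 0 in TGF-beta replicate 2 and control replicate 1, where 0 reads allow up to 0.317 and 0.306 RPM. The endothelial names miR-126a-3p and miR-126a-5p summed to 12.9 to 15.2 RPM with TGF-beta and 12.8 to 25.02 RPM in control. Of the 5 muscle names 3 were lower with TGF-beta (miR-206-3p, miR-486a-5p and miR-1a-3p, the last call lost in 14 of 19 alternatives and that of miR-206-3p with quantile normalization and without the intensity trend), and the part of this change in the values of the members was not tested. In bulk samples, fewer cells that make a miRNA and less of it per cell cannot be told apart.

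The names whose pattern over the 6 libraries was most like that of miR-155-5p were sought among 240 other names averaging 10 RPM or more, by the root-mean-square difference of log2(RPM + 1), each less its control mean. They were miR-181a-2-3p at 0.11, miR-92a-3p at 0.13 and miR-199a-5p at 0.14, where the median over the 240 names was 0.66. Their log2 fold changes, which this choice largely fixes and which are given as a description, were 0.87, 0.82 and 0.67. In level they differed widely, with 34.6 ± 2.05, 1365 ± 72.0 and 4951 ± 156 RPM in that order with TGF-beta, and 18.4 ± 1.14, 774 ± 101 and 3106 ± 36.8 RPM in control.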

How the data were processed

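The deposited table held 1065 miRNA names in 6 small RNA libraries. The authors' values are headed TPM but sum to 1000000 in each library and are whole multiples of 1 step (100% to within 0.01 read), so they are RPM, without a length term. The submitters' processing notes name the build mm9. No source used here names the aligner, the counter or the miRNA annotation. The authors' group means and unadjusted p-values were deposited in the same table. Values were tested with limma 3.58.1 (R 4.3.3, intensity trend) on log2(RPM + 1), which understates folds of low miRNAs, with two-sided Benjamini-Hochberg adjustment over all 418 tested names; 647 names below the filter held at most 0.0131% of any library's reads. Arm ratios were fitted where both arms averaged 1 RPM or more, and sums and paired ratios were compared by two-sided exact permutation tests. Steps were tested on simulated data. Alternatives were other pseudocounts, filters and scalings, count tests on recovered reads (edgeR 4.0.16, DESeq2 1.42.0, limma-voom), a replicate block and each library left out. Intervals of fold changes are confidence intervals from the limma fit and rest on the spread among libraries. Floors (3 reads) cover counting error only, since it is not known whether PCR copies were marked. The members and lists were chosen with earlier results of these data known. Named miRNAs are the members, their other arms, names of the same seed, the called and 3 most abundant names of the inflammation list, and the 3 most alike. Of the marker lists, sums and called names are given. Hairpins were placed with GENCODE M21 and RefSeq on GRCm38, another build than mm9.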

Additional observations from a re-analysis of the deposited data

How the results depend on the processing

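miR-155-5p stayed called and higher in all 19 alternatives (log2 fold change 0.79 to 1.02, adjusted p at most 0.0192); leaving out single libraries gave 0.79 to 0.92. Of 204 combinations of the 11 arms with an alternative, 185 kept direction and side of the threshold and 18 turned sign, each uncalled; miR-155-3p passed once. The 33 calls became 19 without a filter, 19 with a mean of at least 10 RPM and 10 with quantile normalization. They became 16 without the intensity trend and 17 to 36 with single libraries left out. Calls were lowest without TGF-beta replicate 2 (17) and control replicate 1 (18), with 22 without control replicate 3. Quantile normalization and the fit without the trend used the same 418 names and 6 libraries. The cause of these changes was not tested. With miR-21a-5p left out the median of all names moved by 0.16, and miR-132-3p (0.079), miR-212-5p (0.027), miR-146b-3p (0.024), miR-147-3p (0.16), miR-125b-5p (0.14) and the miR-132 and miR-212 locus (0.0695) turned positive. miR-147-3p was at 0.061 with median scaling, 0.059 with TMM, 0.060 with edgeR, 0.063 with limma-voom and 0.046 with DESeq2, and ran from -0.12 to 0.12 over left-out libraries. miR-125b-5p was at 0.037 with median scaling, 0.0394 with TMM, 0.0397 with edgeR, 0.0398 with limma-voom, 0.024 with DESeq2 and 0.013 with quantile normalization (-0.070 to 0.034 over left-out libraries). miR-146b-3p was at 0.028 with quantile normalization (-0.20 to 0.069 over left-out libraries). miR-132-5p ran from -0.062 to 0.11 over left-out libraries and was at 0.17 with miR-21a-5p left out. Over left-out libraries, arm ratio differences ran from 0.023 to 0.42 for miR-155, 0.26 to 0.55 for miR-147 and -0.066 to 0.30 for miR-146b. In the same runs they were -0.015 to 0.15 for miR-132 and -0.0797 to 0.27 for miR-212. The log2 ratio of miR-146a-5p to miR-146b-5p differed by 0.22 to 0.52 and that of miR-132-3p to miR-212-3p by 0.052 to 0.30 over left-out libraries. Without a filter, more names were tested, and 1021 differed in ratio to miR-155-5p. For names near 0 RPM this ratio, with 1 RPM added to both, mainly follows miR-155-5p itself. The count therefore says little about those names. With the replicate block 32 names were called, 384 differed in ratio to miR-155-5p and 0 in arm ratio, and no call of a member changed. Deviations from the group mean correlated at -0.079, -0.068 and -0.084 between same-numbered libraries and at 0.0069 to 0.075 between differently numbered ones. With 3 libraries per group, these correlations cannot decide whether the numbers pair the samples. At 20 to 130 reads, counting error alone was 9.47% to 18.5% of the level of the scarce arms.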
